A study of Mus musculus with 4 samples.

Results

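A set of 10 imprinted growth control genes was followed in an array comparison of metanephric mesenchyme (MM) and intermediate mesoderm (IM) of the mouse embryo: H19, Dlk1, Cdkn1c, Peg3, Mest, Grb10, Plagl1, Ndn, Meg3 and Zim1. They were found by the gene symbol that the platform annotation gives to each probe, which returned 14 probes for the 10 genes among the 22702 probes of the array. Of these, 11 probes of 9 genes had a value on every array and could be tested, and Zim1 could not. A further probe carries the symbols of both H19 and its neighbour Nctc1 and was not counted.

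Both tissues were dissected from embryos labelled 10.5 dpc (days post coitum), of both sexes, as primary tissue; strain, genotype and the number of embryos are not given in the labels. MM is the mesenchyme that gives rise to the nephrons of the permanent kidney, and IM is the mesoderm from which the urogenital organs develop. Each of 4 two-colour oligonucleotide arrays carried both tissues, with MM in channel 1 on arrays 1 and 2 and in channel 2 on arrays 3 and 4. For arrays 3 and 4 the labels interchange "mesenchyme" and "mesoderm" in the tissue names, which were read as the same pair of tissues. Values are log2 ratios of MM over IM, so positive values mean higher in MM. That direction is likely from the labels and not settled by them, because they name no dye for either channel. Whether separate dissections were used for the arrays is not stated, so the spread behind the p-values may be technical. In the fit with a term for this channel orientation, p-values reflect only how much arrays of the same orientation differ. The SDs given beside them are over all arrays with a value.

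The orientations stood apart over the whole array. Any other difference between arrays 1 and 2 and arrays 3 and 4 cannot be told apart from the channel orientation. Of the values deposited, 16 and 8 on arrays 1 and 2 but 1672 and 1805 on arrays 3 and 4 were at a floor, a ratio of 0.01, which is a bound and not a measured fold. Across the 13191 tested probes without a floor value (probes are not independent), the correlation was 0.836 for arrays 1 and 2, 0.912 for arrays 3 and 4, and 0.113 to 0.274 between orientations. With the floor values kept, over 14184 probes, it was -0.349 to -0.26 between orientations. Each member is therefore given by array.

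Genomic imprinting leaves a gene active from the copy of one parent and silent on the other. Many imprinted genes act on fetal growth. Dlk1, Peg3, Mest, Plagl1 and Ndn are expressed from the paternal copy, H19, Cdkn1c, Grb10, Meg3 and Zim1 chiefly from the maternal copy, and Cdkn1c and Grb10 are known to restrain growth. Several of them are strongly expressed in embryonic mesoderm and fall after birth. Most sit in clusters that share a control region, so that Dlk1 neighbours Meg3, Peg3 neighbours Zim1, and H19 neighbours Igf2. The arrays measured total RNA and could not tell the parental copies apart.

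Meg3, Dlk1 and Peg3 each had a probe that was lower in MM on all arrays and called both with and without a term for channel orientation, and their promoters are shown as the sequences of the genes that carry this result. The windows run from 250 bases before to 50 bases after the transcript start in RefSeq (build GRCm38.p6), 5′ to 3′ on the gene's strand, with each CpG, the dinucleotide that carries most DNA methylation, in capitals. The Dlk1 window is chr12:109452573-109452872 on the plus strand, the Meg3 window (the first of 2 listed) is chr12:109540746-109541045 on the plus strand, and the Peg3 window is chr7:6730370-6730669 on the minus strand.
Dlk1: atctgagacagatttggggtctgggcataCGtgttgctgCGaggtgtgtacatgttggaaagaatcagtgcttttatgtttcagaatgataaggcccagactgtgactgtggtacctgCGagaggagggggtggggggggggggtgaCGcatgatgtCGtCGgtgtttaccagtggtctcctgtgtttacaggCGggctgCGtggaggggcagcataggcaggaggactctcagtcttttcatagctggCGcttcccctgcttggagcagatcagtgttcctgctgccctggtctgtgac
Meg3: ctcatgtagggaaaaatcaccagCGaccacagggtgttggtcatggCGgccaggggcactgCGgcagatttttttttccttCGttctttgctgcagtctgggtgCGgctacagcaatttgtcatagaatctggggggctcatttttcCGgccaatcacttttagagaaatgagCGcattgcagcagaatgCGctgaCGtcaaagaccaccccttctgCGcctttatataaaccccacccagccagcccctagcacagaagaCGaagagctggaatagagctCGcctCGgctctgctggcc
Peg3: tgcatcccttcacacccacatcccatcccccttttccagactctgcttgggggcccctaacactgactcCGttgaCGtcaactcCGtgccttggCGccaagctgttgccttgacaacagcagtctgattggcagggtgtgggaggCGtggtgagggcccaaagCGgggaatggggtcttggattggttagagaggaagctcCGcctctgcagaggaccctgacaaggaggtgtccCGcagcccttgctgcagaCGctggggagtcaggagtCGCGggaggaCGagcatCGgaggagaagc

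The printed windows held 9 CpG in Dlk1, 13 in Meg3 and 13 in Peg3, against a median of 7 over all 32851 windows of this length. By the ratio of observed to expected CpG (0.427, 0.602 and 0.463) they stood at the 53.3, 64.4 and 55.7 percentiles of all windows. Windows were listed for 8 of the 10 genes, 12 in all, with H19 and Cdkn1c unlisted. The 12 are not independent, since Mest, Grb10 and Meg3 had more than 1 and Mest windows 2 and 3 overlap almost wholly. The median ratio of observed to expected CpG of the 12 was 0.596, against 0.384 over all windows. The range was wide: the first Grb10 window held 45 CpG at a ratio of 0.973, Plagl1 held 26 at 0.696 and Zim1 held 20 at 0.717, while the second Meg3 window held 1 at 0.0588. The letters GGGGCCCC, the core of the site described for the Plagl1 protein, were searched on both strands and occurred in 1 of the 12 member windows, that of Peg3, and in 1.08% of all windows. The letters GCCATNTT, the core of the site of the factor YY1, occurred in 0 of the 12 and in 6.05% of all windows. Methylation and binding were not measured in these samples, and a match or its absence describes the letters of the window alone.

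More member probes were lower than higher in MM. In the limma fit with a term for channel orientation, 8 of the 11 tested probes were lower in MM and 2 were higher, at a Benjamini-Hochberg adjusted p below 0.05. Meg3 alone gave 3 of the 8 lower calls, so these are not 8 genes. Among the called probes, 1 of Meg3 (lower) and that of Plagl1 (higher) changed sign between orientations. Over all 14184 tested probes, 38.1% were called lower and 23.8% higher, 61.9% in all, so a call by itself says little. The 5408 lower calls over all probes included 855 probes with a floor value, a kind absent from the member probes. In both fits, that is also without the orientation term, 3 member probes were lower (14.4% of all tested probes) and 0 were higher (13.6%). At an unadjusted p under 0.05 in both limma fits, 4 were lower and 1 was higher, where 22.0% and 17.9% of all tested probes were. The median log2 ratio of the 11 probes was -0.347, against -0.0822 over all tested probes. The sign was the same on all arrays for 7 of the 11, 6 of them lower, where 49.4% of all tested probes kept their sign. Of the 11, 1 reached 2-fold, as did 13.1% of all tested probes, a share that includes the 993 tested probes with a floor value. The median absolute log2 ratio was 0.369 for the 11 and 0.257 for all tested probes. No value of the 14 member probes lay at the floor of the deposited ratios, and 5 values were missing.

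**Figure D1:**
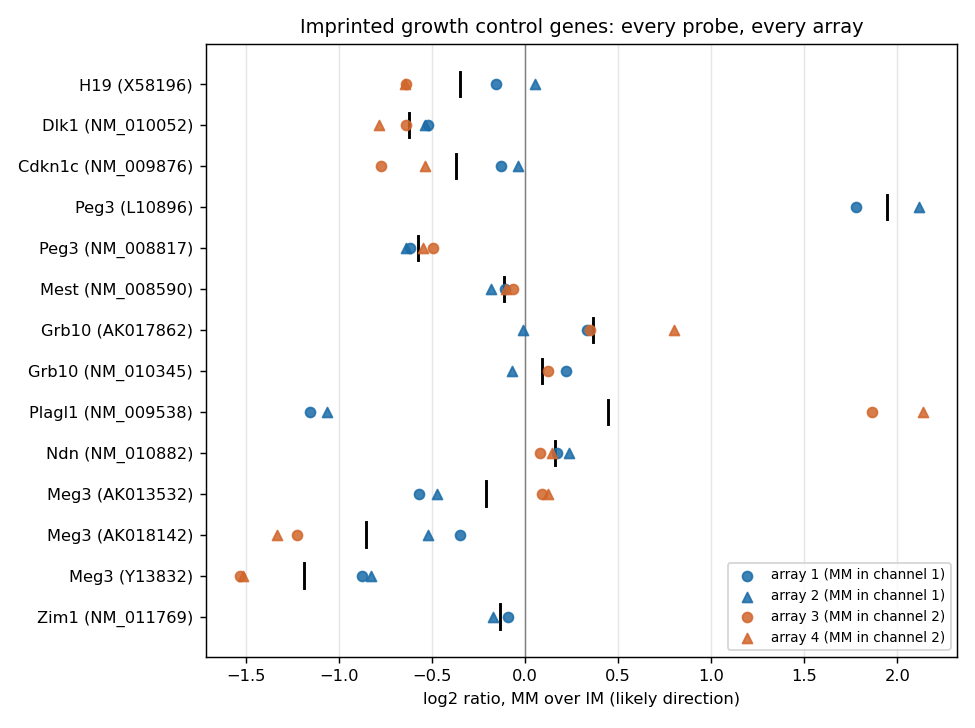
Log2 ratio of MM over IM (x axis) for each of the 14 member probes (y axis, with the sequence entry each probe was designed on), 1 point per array, coloured by channel orientation, with a black bar at the mean of the values present. Dlk1, Mest, Ndn and the 4-value Peg3 probe show points close together, while Plagl1 splits into -1.16 and -1.06 on arrays 1 and 2 against 1.86 and 2.14 on arrays 3 and 4.

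Meg3, a long noncoding RNA expressed from the maternal copy, was measured by 3 probes that differed in size. The probe for the entry Y13832 read -0.87, -0.83, -1.53 and -1.51 on arrays 1 to 4. It lay below 0 on every array and lower on arrays 3 and 4 than on arrays 1 and 2. Its mean was -1.19 ± 0.39 (SD, n = 4), 2.28-fold lower in MM (limma adjusted p = 0.000436, and 0.016 without the orientation term), the largest difference among the tested member probes. The probe for AK018142 read -0.35, -0.52, -1.22 and -1.33 on arrays 1 to 4, with a mean of -0.86 ± 0.49, and passed in the fit with the orientation term (limma adjusted p = 0.00157) and missed without it (0.0582). The probe for AK013532 read -0.57 and -0.47 on arrays 1 and 2 but 0.09 and 0.12 on arrays 3 and 4. It had a mean of -0.21 ± 0.37 with a limma adjusted p of 0.0127, and 0.43 without the orientation term. That call was lost in limma without array 3 (adjusted p = 0.0771) or array 4 (0.0697), in a range of 0.00829 to 0.797 over its alternatives. The probes thus shared a sign on arrays 1 and 2 and not on arrays 3 and 4. The deposited table does not give the part of the transcript that each probe covers.

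Dlk1, a transmembrane protein with EGF-like repeats that restrains the maturation of precursor cells, is the paternally expressed neighbour of Meg3 and was lower in MM as well. It read -0.52, -0.54, -0.64 and -0.78 on arrays 1 to 4. All values lay below 0 and close together. The mean of -0.62 ± 0.12 (n = 4) was 1.54-fold lower in MM, with a 95% interval of -0.73 to -0.51 in the limma fit (adjusted p = 0.00186) and -0.80 to -0.44 without the orientation term (adjusted p = 0.00777). Dlk1 and the Meg3 probes, which are expressed from opposite parental copies, therefore had means of the same sign.

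The other transcripts of this cluster did not share one direction. Rian, a maternally expressed noncoding RNA beyond Meg3 in gene order, read 2.07, 1.97, 2.02 and 2.07, a mean of 2.03 ± 0.05 (limma adjusted p = 0.000302) that was higher in MM. Mirg, the maternally expressed host transcript of microRNAs that follows it, was named after its values were seen and averaged -0.72 ± 0.07 (limma adjusted p = 0.00166). Both passed in both fits. Meg3, Rian and Mirg are all expressed from the maternal copy, and the Rian probe stood above 0 on every array where the Mirg probe and 2 of the 3 Meg3 probes stood below it.

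Peg3, a large zinc finger protein expressed from the paternal copy and known for effects on growth and maternal behaviour, was lower in MM by its probe with 4 values. The probe for NM_008817 read -0.61, -0.64, -0.49 and -0.55, the narrow spread being alike in both orientations. Its mean was -0.57 ± 0.07 (n = 4), 1.49-fold lower in MM, with a limma adjusted p of 0.00126, and 0.00492 without the orientation term. The second Peg3 probe, for L10896, read 1.78 and 2.12 on arrays 1 and 2 and had no value on arrays 3 and 4. The 2 probes thus disagreed in sign on arrays 1 and 2, and the direction of Peg3 holds for the probe with 4 values only. Zim1, a zinc finger gene expressed from the maternal copy beside Peg3, read -0.09 and -0.17 on arrays 1 and 2 alone and was not tested. Usp29, a ubiquitin protease gene that is the paternally expressed neighbour on the other side of Peg3, averaged -0.01 ± 0.21 (limma adjusted p = 0.86).

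**Figure D2:**
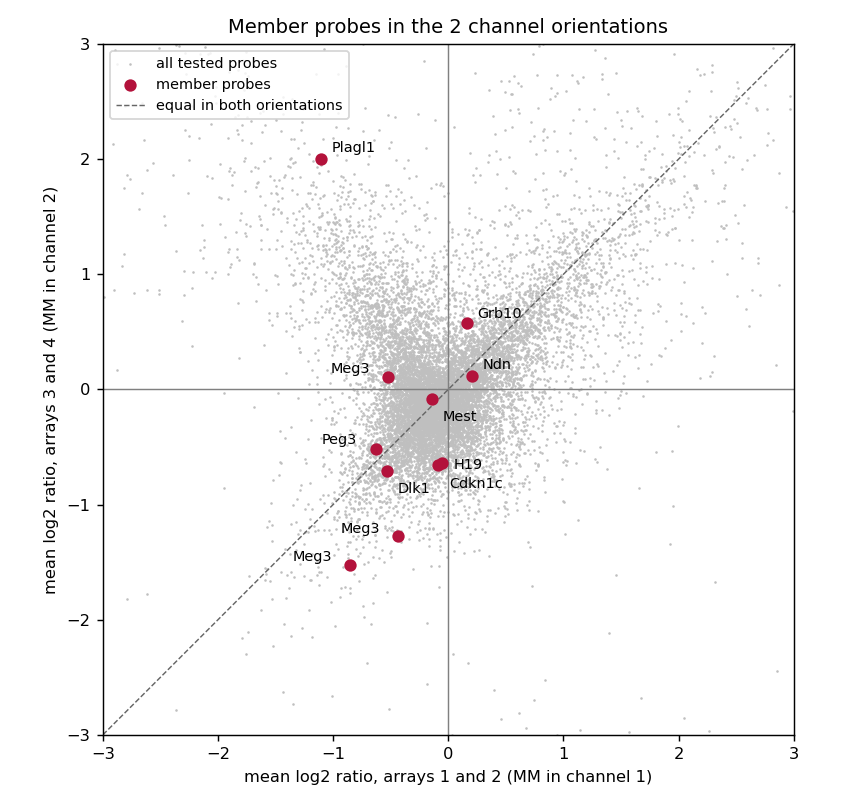
Mean log2 ratio of arrays 1 and 2 (x axis) against that of arrays 3 and 4 (y axis) for the tested probes, members in red and all others in grey; 1046 tested probes lie beyond the plotted limit of 3. Dlk1, Peg3, Mest and Ndn lie close to the dashed line of equal means, H19 and Cdkn1c lie together below it, and Plagl1 is at -1.11 and 2.00.

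H19, a maternally expressed noncoding RNA of embryonic mesoderm and endoderm, had log2 ratios of -0.16, 0.05, -0.64 and -0.65 on arrays 1 to 4. Arrays 1 and 2 lay around 0, and the lower values came from arrays 3 and 4. The mean was -0.35 ± 0.35 (n = 4, limma adjusted p = 0.00991) and the call was lost without the orientation term (adjusted p = 0.199). It was also lost in limma without array 3 (adjusted p = 0.0627) or array 4 (0.0635); over its 13 alternatives the adjusted p ran from 0.00743 to 0.676. Igf2, the paternally expressed growth factor gene beside H19, read -0.78 and -2.63 on arrays 1 and 2 and had no value on the others.

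Cdkn1c, the cyclin-dependent kinase inhibitor also called p57Kip2, had log2 ratios of -0.13, -0.04, -0.77 and -0.54 on arrays 1 to 4. The pattern over arrays was like that of H19, with the sign below 0 on all arrays. Its mean was -0.37 ± 0.34 (n = 4, limma adjusted p = 0.012), and it missed without the orientation term (adjusted p = 0.17). Its 95% interval of -0.80 to 0.06 in that fit included 0. The call also missed in limma without array 1 (adjusted p = 0.106) or array 2 (0.0909), in a range of 0.00903 to 0.653 over the 13 alternatives. Phlda2, a maternally expressed regulator of placental growth in the same cluster, averaged -0.49 ± 0.35 (limma adjusted p = 0.00322, and 0.1 without the orientation term). Slc22a18, between Cdkn1c and Phlda2 in gene order among the listed genes, read -0.22 and -0.06 on arrays 1 and 2 alone. The 3 probes of Kcnq1, the potassium channel gene of the cluster, had values on arrays 1 and 2 alone, with means of 0.10, 1.22 and 3.02.

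Grb10, an adaptor that binds the insulin and IGF receptors and limits their signal, had 2 probes. The probe for AK017862 read 0.33, -0.01, 0.35 and 0.80, a spread as large as the mean of 0.37 ± 0.33 (n = 4), and was the tested member probe that did not pass (limma adjusted p = 0.0651, and 0.163 without the orientation term). Its 95% interval, unadjusted for the number of probes, was 0.02 to 0.71 in the fit with the term. The probe for NM_010345 read 0.22, -0.07 and 0.12 on arrays 1 to 3 and had no value on array 4.

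Plagl1, a zinc finger transcription factor also known as Zac1 that halts the cell cycle and regulates other imprinted genes, changed sign with the channel orientation. Its log2 ratios were -1.16, -1.06, 1.86 and 2.14 on arrays 1 to 4. Within each orientation the arrays lay close together, and between orientations they did not overlap. The mean of 0.45 ± 1.80 (n = 4) passed in the fit with the orientation term (limma adjusted p = 0.0101) and not without it (adjusted p = 0.739), and it describes neither pair of arrays. The call was lost in limma without array 1 (adjusted p = 0.089) or array 2 (0.0995), in a range of 0.00743 to 0.911 over its alternatives. The orientation term was -3.11 (arrays 1 and 2 minus arrays 3 and 4, limma adjusted p = 0.00206), a size reached by 1.56% of the 13191 tested probes with no value at the floor. The direction of Plagl1 between the tissues is therefore not given by these arrays.

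Ndn (necdin), a MAGE family protein that is paternally expressed and slows cell growth, read 0.17, 0.24, 0.08 and 0.15. It was above 0 on every array, the only tested member probe that was, with a mean of 0.16 ± 0.06 (n = 4), or 1.12-fold higher in MM (limma adjusted p = 0.0222, and 0.0857 without the orientation term). The call was lost in limma without any of the arrays in turn (adjusted p from 0.059 to 0.11; 0.01 to 0.705 over all its alternatives). Mkrn3, a paternally expressed gene of the same cluster, averaged -0.02 ± 0.06 (limma adjusted p = 0.489). Other paternally expressed genes of that cluster were called, with Peg12 and Snrpn higher and Snurf lower in MM (values below). Mest, a paternally expressed enzyme-like protein of the embryonic mesoderm, read -0.11, -0.18, -0.07 and -0.10. Its mean of -0.11 ± 0.05 (n = 4) was 1.08-fold lower in MM and passed narrowly (limma adjusted p = 0.0436, and 0.147 without the orientation term). With each array centred on its median the mean of Mest was -0.05 (limma adjusted p = 0.227; over its 13 alternatives the adjusted p ran from 0.0402 to 0.774), and the call was lost without array 2, 3 or 4 (0.0695, 0.141 and 0.174). Copg2, a coat protein gene next to Mest and expressed from the maternal copy, averaged 0.23 ± 0.08 (limma adjusted p = 0.0115).

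The orientation term passed for 6 of the 11 member probes, where 44.6% of all tested probes did. These were H19, Cdkn1c, Plagl1 and the 3 Meg3 probes. For the other 5, Dlk1, Peg3, Mest, Ndn and Grb10, the difference between orientations did not pass (limma adjusted p from 0.131 to 0.432), which does not show that it was absent. The median absolute difference between orientations was 0.568 for the member probes and 0.302 for the tested probes with no floor value.

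**Figure D3:**
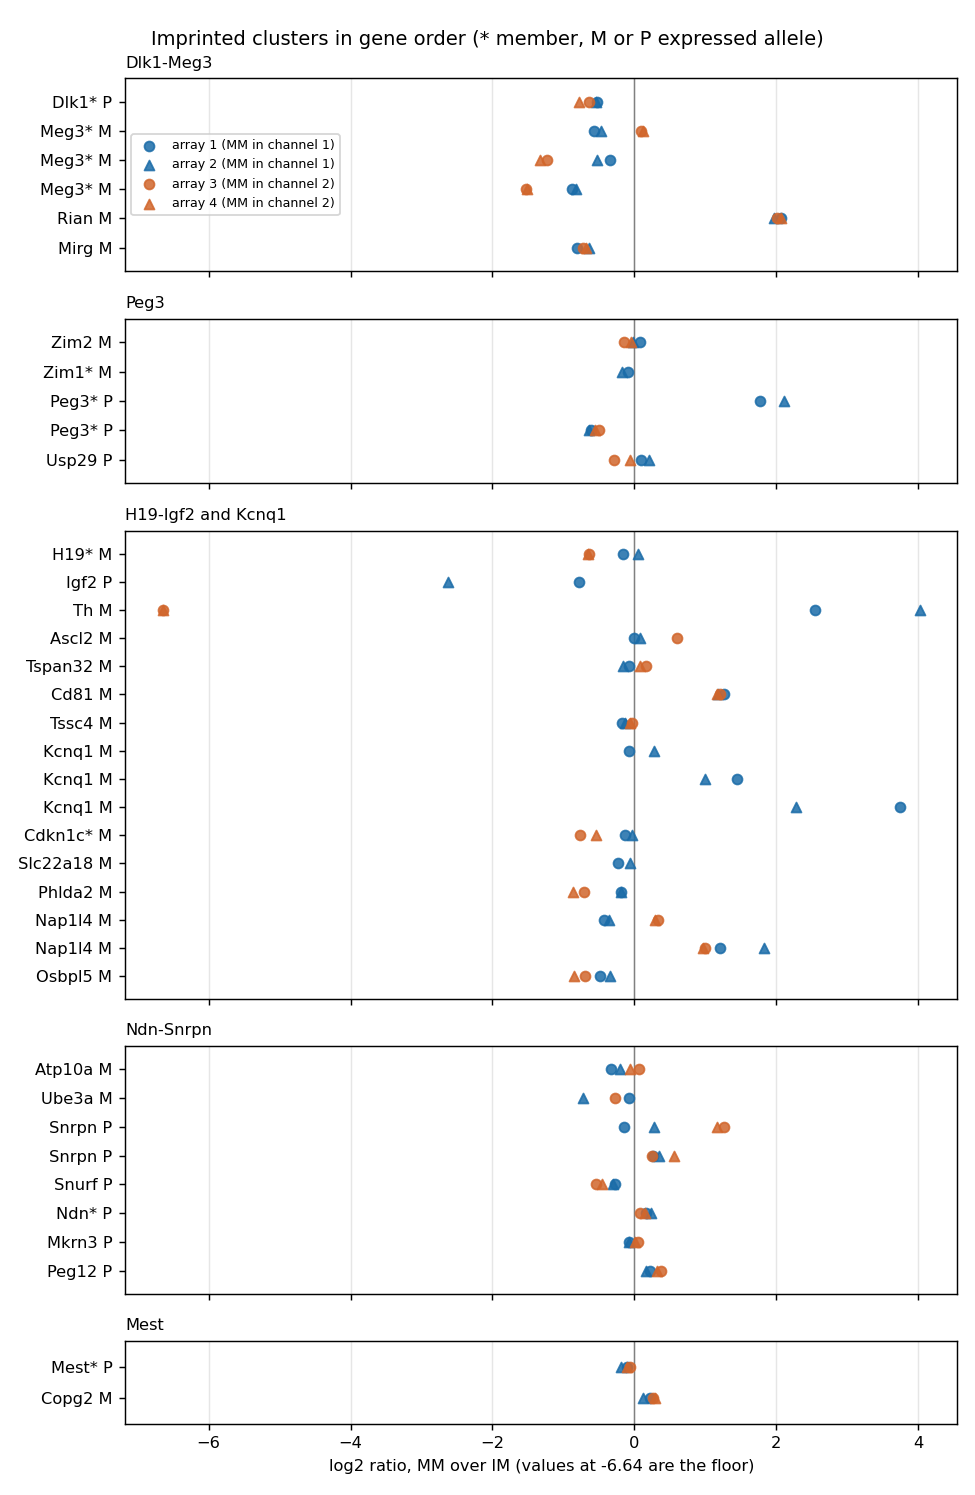
Log2 ratio of MM over IM on each array (x axis) for the probes of 5 imprinted clusters, in gene order from top to bottom within each panel; an asterisk marks the followed genes, and M or P the expressed copy. In the top panel Rian stands near 2.03 while Dlk1, Mirg and 2 of the 3 Meg3 probes are below 0 on every array; the points of Th at the far left are floor values.

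Other imprinted genes were called in both directions. Of 54 such genes listed, 40 had a probe and 27 were tested: 8 were higher in MM, 12 were lower and 7 did not pass, with 7 and 6 in both fits. Of the 12 lower calls, 3 came only from a probe with floor values, which left 9. The median log2 ratio of their 31 tested probes was -0.0713, close to that of all tested probes. Among the 9 tested paternally expressed genes, 3 were higher and 3 lower: Snurf (-0.39 ± 0.13, limma adjusted p = 0.00285), Sgce, a sarcoglycan (-0.44 ± 0.24), and Nnat, a membrane proteolipid (-0.23 ± 0.03), were lower, and Peg12 (0.27 ± 0.10) was higher. Snurf and Snrpn are adjacent in the listed order and were counted as separate genes. Whether their probes read a shared transcript was not tested. Snrpn was called higher through probes that averaged 0.64 ± 0.68 and 0.36 ± 0.14 (limma adjusted p = 0.0101 and 0.0212). Only the Snrpn probe averaging 0.36 also passed in limma without the orientation term (adjusted p = 0.0357). Among the 17 tested maternally expressed genes, 5 were higher and 8 lower, or 6 lower without the genes called through floor values, Slc22a2 and Th. Rian and the tetraspanin Cd81 (1.20 ± 0.05, limma adjusted p = 0.000543) had the smallest adjusted p of the higher ones, and the matrix proteoglycan Dcn (-1.03 ± 0.55, limma adjusted p = 0.00128) was lower. Slc22a2 had ratios of 0.04 and -0.04 on arrays 1 and 2 and floor values on the others, so no fold is given for it. Gnas, whose expressed copy depends on the transcript, was called lower through a probe with 3.31 and 1.89 on arrays 1 and 2 and floor values on the others, while its second probe averaged -0.07 ± 0.16 (limma adjusted p = 0.23). Several of these genes are imprinted chiefly in the placenta, which was not sampled.

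Relatives of the members that are not imprinted also went both ways. Of 10 listed, 7 were tested, with 2 higher and 5 lower in MM, and 2 and 0 in both fits. The higher ones were Maged2, a MAGE family relative of Ndn (1.52 ± 0.27, limma adjusted p = 0.000302), and Grb14, the adaptor most like Grb10 in the list (1.24 ± 0.11, limma adjusted p = 0.000774). Cdkn1b, a kinase inhibitor of the Cdkn1c family, had ratios of 0.18 and 0.37 on arrays 1 and 2, and Maged1, another relative of Ndn, had 5.22 and 5.63. Both had floor values on arrays 3 and 4, which set their calls as lower.

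For the 2 member probes of smallest adjusted p, the nearest probes were found by Euclidean distance over the 4 arrays. For the Meg3 probe of Y13832 they were Tagln (distance 0.0837), Zbtb7a (0.221) and Lgals1 (0.237), out of 11539 probes of other genes. For Peg3 they were Tmem126a (0.0222), Ap3d1 (0.0315) and Trappc6b (0.0493), out of 11541. With so many candidates and 4 values each, close matches are common, and the distances are given as a description.

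Markers of tissues that the dissections could hold moved between the samples as well. Of 9 tested genes of metanephric mesenchyme, 5 were higher in MM, among them Crym (2.10 ± 0.24), Gdnf (1.92 ± 0.13) and Hoxa11 (1.92 ± 0.59), and 2 were lower. In both fits 5 were higher and 1 was lower. Itga8 was called lower only through floor values on arrays 3 and 4 and had ratios of 3.67 and 4.16 on arrays 1 and 2. The other lower gene was Wt1 (-1.57 ± 0.02, limma adjusted p = 0.000302), a defining gene of this mesenchyme that is also expressed in the gonad, so the markers did not all follow the label. Of 6 genes of intermediate mesoderm and nephric duct, 1 was higher and 3 were lower, including Cdh16 (-1.40 ± 0.05), with 1 and 2 in both fits. Of 5 adrenal and gonadal genes, 4 were lower in MM (probe means -1.68 to 0.06), with 3 lower in both fits. Of 8 somite and muscle genes 7 were lower, 1 of them (Myod1) through floor values, and 1 higher (-2.57 to 0.97 without that probe). In both fits 4 somite and muscle genes were lower and 1 was higher. Of 6 neural genes 5 were lower and 1 higher (-0.97 to 1.58), with 4 and 1 in both fits. All 6 tested gut and liver endoderm genes were higher in MM (1.02 to 2.81), as were 4 of 7 endothelial genes, with 2 lower (-0.52 to 0.79). In both fits 6 endoderm genes were higher and 0 lower, and 4 endothelial genes were higher and 1 lower. Of 4 erythroid genes, 2 were higher and 1 was lower (-0.85 to 0.30), with 0 and 1 in both fits. The probes that called Hba-a1 and Hba-x higher were below 0 on arrays 1 and 2 and above 0 on arrays 3 and 4. The part of these cells in the members' ratios was not tested. In bulk tissue, fewer cells of a type and less RNA per cell cannot be told apart, and ratios give no level, so which markers were near background is unknown.

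**Figure D4:**
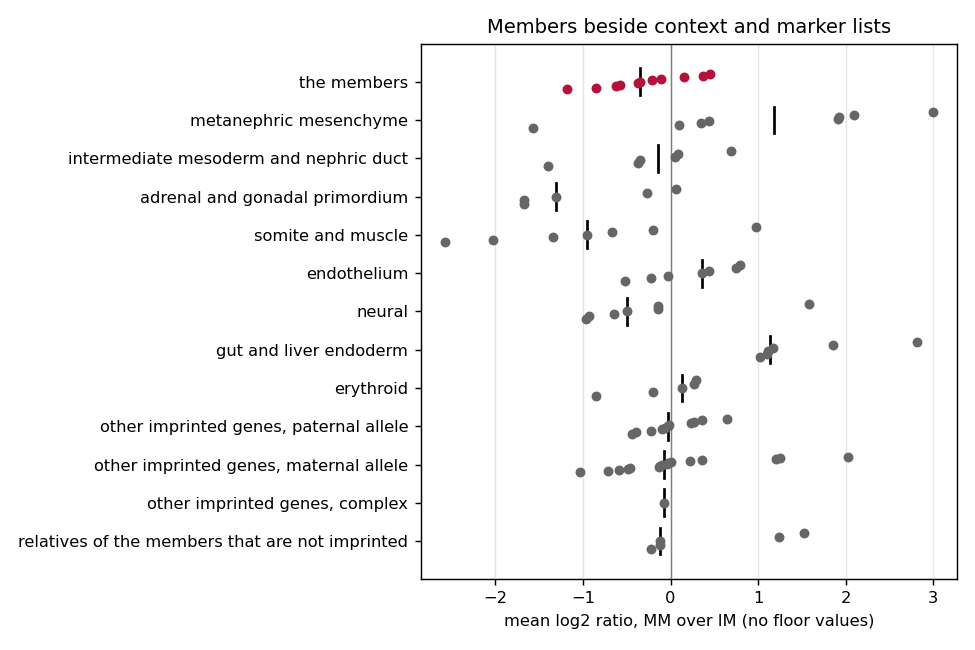
Mean log2 ratio over 4 arrays (x axis, MM over IM) of each probe of the members (red) and of the marker and context lists (grey), with a black bar at the median; probes with a value at the floor are left out. The members have their median at -0.347, the adrenal and gonadal list at -1.31, the somite and muscle list at -0.954 and the endoderm list at 1.14.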

How the data were processed

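Each of 4 two-colour arrays compared MM with IM directly. Per the labels, the authors amplified the RNA with an amino allyl kit, quantified spots with Imagene 5.5, reversed the channels of arrays 3 and 4, fitted a lowess curve with 20% of the data at each point, adjusted the control channel by it and raised control values under 10 to 10. The authors deposited 1 log2 ratio per probe and array. The base was read from the lowest value, which is the log2 of 0.01 and was treated as a floor (tolerance 0.001). How background was handled and spots were filtered is not given in the sources used here. No intensities are in the table used, so the number of arrays limits the precision.

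Arrays 1 to 4 held 21509, 21599, 15812 and 16242 values. The 14184 probes with 4 values entered a linear model (limma 3.58.1, R 4.3.3) whose intercept is the tissue difference and whose second coefficient is the channel orientation, and p-values were adjusted over all of them (Benjamini-Hochberg, threshold 0.05). The residual of that fit comes from arrays of the same orientation, so calls in a fit without the term stand beside it. The script was tested on simulated data. Errors are SDs over arrays.

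Of all probes, 17252 had 1 gene symbol, 156 several and 5294 none; 16566 of the first kind matched the RefSeq gene table of GRCm38.p6 by gene ID. Promoter sequences are from RefSeq. Every member probe is reported; other genes are named as neighbours in a cluster, as up to 4 of smallest adjusted p per list or by distance over the arrays. Mirg, Snrpn, Itga8, Myod1 and Th were named after their values were seen, the last 3 for their floor values. The members and lists were chosen with earlier results of these data known. The alternatives were no orientation term, averaged orientations, floor values left out, 3 or more values, centring, scaling, array weights, each array left out and each orientation alone.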

Additional observations from a re-analysis of the deposited data

Results flagged for a closer look

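Plagl1 was lower in MM on both arrays of one channel orientation and higher on both of the other. Its orientation term, arrays 1 and 2 minus arrays 3 and 4, was -3.11 (limma adjusted p = 0.00206). The Meg3 probe for AK013532 had the same pattern at a smaller size, with a term of -0.63 (limma adjusted p = 0.0117) that 26.1% of the tested probes with no floor value reached or passed. Of all 14184 tested probes, 18.3% were below 0 on arrays 1 and 2 and above 0 on arrays 3 and 4, and 14.9% had the opposite pattern. No member probe had 1 array standing far from the other 3 by Dixon's criterion. That criterion could hardly flag a probe whose arrays split by orientation, because a second value then lies near the extreme.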

How the results depend on the processing

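The probes of Dlk1, Peg3 (NM_008817) and Meg3 (Y13832) passed the limma threshold under 12 of 13 alternatives each, missing with each orientation averaged to 1 value (adjusted p = 0.461 for each; the lowest over alternatives were 0.00129, 0.000911 and 0.00041). In that setting 0 of all tested probes, 0 of the member probes and 0 of the other imprinted genes passed in limma, with 1526, 3 and 4 at an unadjusted p under 0.05. Without the orientation term, 3968 of all tested probes (8779 with it), 3 member probes (10 with it) and 13 other imprinted genes (20 with it) passed. On arrays 1 and 2 alone the counts were 5614, 6 and 11, and on arrays 3 and 4 alone 7701, 6 and 19. Leaving out 1 array at a time gave 5808 to 6782 calls over all probes, 6 to 7 member probes and 13 to 20 other imprinted genes. The lowest all-probe counts came without array 3 (5808) and array 4 (5848); 6 member probes passed without array 2, 3 or 4, and 13 other imprinted genes without array 3. Plagl1 reversed to -1.11 on arrays 1 and 2 alone, and the Meg3 probe for AK013532 to 0.108 on arrays 3 and 4 alone. Member probes called, with all probes called in brackets, were 9 (8252) after centring, 9 (8571) after scaling, 10 (8749) with array weights, 10 (8130) without floor values and 9 (9719) with 3 or more values. The cause of these changes was not tested, and some of the settings leave fewer arrays.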

Other observations

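The probe that carries both the H19 and the Nctc1 symbol read -1.31 and -0.27 on arrays 1 and 2 and had no value on arrays 3 and 4. The second Grb10 probe, for NM_010345, had a log2 ratio of 0.0996 in the fit of probes with 3 or more values (limma adjusted p = 0.467).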
